A study of Homo sapiens with 60 samples.

Results

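The genes described are 10 WNT targets and crypt stem-cell genes: LGR5, ASCL2, EPHB2, EPHB3, SP5, NOTUM, NKD1, AXIN2, RNF43 and ZNRF3. They were chosen by name, as the rows of the gene count table that carry these symbols, and make up 10 of 60675 genes in the table. All 10 passed the filter on low counts, which kept 16978 genes. HT29 cells, an established line from a human colorectal adenocarcinoma, were exposed for 24 h to ethanol extracts of 4 herbs and 4 herbal formulas, and polyadenylated RNA was sequenced. Each extract was given at 3 doses, the high one being the dose that inhibits growth by 20% (the IC20) or 500 µg/mL where the IC20 was above that, with 1/5 and 1/25 dilutions. The question addressed is how each extract and dose alters gene expression in the same cell line.

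Aucklandiae Radix was given at 14.8, 74 and 370 µg/mL and Polygalae Radix at 15.2, 76 and 380 µg/mL, with 2 libraries at each dose. Menthae Herba, Saposhnikoviae Radix, Guibi-tang and Saengmaek-san were given at 20, 100 and 500 µg/mL with 3 libraries at each dose, Soyo-san at the same doses with 2 libraries each, and Okbyeongpung-san at the same doses with 1 library each. The 3 vehicle libraries received DMSO, labelled 0.1% in the sample labels and 2% in the design text. The cells were the same line in every group. Whether the replicates came from separate cultures is not stated, and p-values therefore reflect the spread among libraries, which may be technical. Total expected counts ran between 18690501 and 36796414 in 59 of the 60 libraries. The remaining one, Saposhnikoviae Radix low replicate 2, had 17079221 and correlated with its group at no more than r = 0.848, whereas each of the 56 other libraries that share a group reached at least 0.995585. It also went against its group in several of the genes described, with 1.16 CPM (counts per 1000000 of the scaled library total) of LGR5, 5.56 CPM of AXIN2 and 27.7 CPM of ASCL2. It was left out of the levels and tests below. Kept in the fit, it left every high-dose call of the 10 genes with the same sign, but 32 of 75 such calls against vehicle or the low dose no longer passed; the adjusted p with it in is given with most of the high-dose values it concerns, and its effect on the counts with the counts. The library names put Aucklandiae Radix and Polygalae Radix in 1 set, Menthae Herba and Saposhnikoviae Radix in another, and Guibi-tang and Saengmaek-san in another. Soyo-san and Okbyeongpung-san make up a further set, and the vehicle is in a set of its own. A difference between extract and vehicle and a difference between library sets therefore cannot be told apart in the comparisons with vehicle, whereas comparisons of the high with the low dose, and of extracts of 1 set, lie within a set.

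In the intestine, WNT ligands at the crypt base keep beta-catenin from being degraded, so that it enters the nucleus and activates target genes with TCF/LEF factors. Some of these targets are markers of the stem and progenitor cells of the crypt, and others are negative feedback regulators that restrain the pathway at the receptor, in the extracellular space or in the cytoplasm. Colorectal cancer lines such as HT29 carry truncating mutations of APC, a scaffold of the complex that degrades beta-catenin, and express such targets without added WNT.

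Promoter windows were searched for letters that TCF/LEF factors recognise, and other forms of the site were not searched. RefSeq (GRCh38.p14) windows of 300 bases, 250 before to 50 after a transcription start, were matched for 4 of the 10 genes (EPHB2, EPHB3, RNF43 and SP5). The letters searched were CTTTGA on either strand, that is CTTTGA or TCAAAG, which do not overlap each other in these windows. They occurred at least once in 4536 of 35116 windows (12.9%) and at least 3 times in 35 windows (0.0997%). The SP5 window held 3 matches, which begin 147, 109 and 83 bases before the start, and the EPHB2, EPHB3 and RNF43 windows held 0. SP5 is shown because it is the window with matches, EPHB3 because its level moved with that of SP5, and RNF43 because its level moved little. The matches are in capitals, and all 3 are printed 5′ to 3′ on the gene's strand. SP5 lies on the plus strand at chr2:170715087-170715386, EPHB3 on the plus strand at chr3:184561535-184561834, and the RNF43 window on the minus strand at chr17:58417485-58417784.
SP5: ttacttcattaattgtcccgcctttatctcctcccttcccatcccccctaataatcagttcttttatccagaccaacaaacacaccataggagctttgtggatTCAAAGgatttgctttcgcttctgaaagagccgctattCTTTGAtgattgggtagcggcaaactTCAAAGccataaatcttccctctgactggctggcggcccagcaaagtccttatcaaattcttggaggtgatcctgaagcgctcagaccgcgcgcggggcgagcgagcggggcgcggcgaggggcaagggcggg
EPHB3: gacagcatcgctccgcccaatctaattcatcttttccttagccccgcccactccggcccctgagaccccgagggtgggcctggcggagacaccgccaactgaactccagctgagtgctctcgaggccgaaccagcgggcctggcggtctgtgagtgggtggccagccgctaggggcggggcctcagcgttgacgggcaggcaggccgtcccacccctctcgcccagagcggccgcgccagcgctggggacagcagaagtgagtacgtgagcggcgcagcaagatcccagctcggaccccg
RNF43: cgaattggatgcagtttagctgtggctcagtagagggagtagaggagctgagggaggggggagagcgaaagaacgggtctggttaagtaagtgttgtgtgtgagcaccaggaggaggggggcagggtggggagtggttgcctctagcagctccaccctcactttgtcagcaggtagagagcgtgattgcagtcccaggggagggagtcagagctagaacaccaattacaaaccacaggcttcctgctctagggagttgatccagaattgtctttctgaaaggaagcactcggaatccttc

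The identity of the cells was checked against 12 markers of colon epithelium, all of which were tested and summed to between 7652 and 15207 CPM per library. Most of that sum came from KRT8 and KRT18, with 7328 and 4339 CPM in vehicle. CDX1, CDX2, CDH17 and GPA33 had 0.910, 4.42, 3.02 and 3.12 CPM there, and the rest lay between 163 and 531 CPM. Of 8 fibroblast markers, 2 passed the filter, and their list summed to between 1.55 and 3.49 CPM. Of 6 blood cell markers and 6 hepatocyte markers, 2 and 3 passed the filter, and the lists summed to 971 to 1625 CPM and 171 to 373 CPM, most of it from LYZ and SERPINA1, with 1485 and 345 CPM in vehicle. In bulk RNA, fewer cells that express a gene and less of its RNA per cell cannot be told apart.

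In vehicle libraries the genes differed widely in level per length (CPM per kb of exon). RNF43, a membrane E3 ubiquitin ligase that removes WNT receptors, had the highest level at 40.5 CPM per kb. Its relative ZNRF3 had 16.8 CPM per kb, and AXIN2, a feedback scaffold of the beta-catenin destruction complex, had 15.4 CPM per kb. EPHB3 had 6.05 CPM per kb, LGR5 5.65, SP5 4.84 and ASCL2 2.73. The lowest were EPHB2 with 0.431 CPM per kb, NOTUM with 0.401 and NKD1 with 0.0912. At the high dose of Aucklandiae Radix LGR5 had 0.400 CPM per kb, so that its level per length there lay below that of SP5, with 0.949, and near that of ASCL2, with 0.404.

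**Figure D1:**
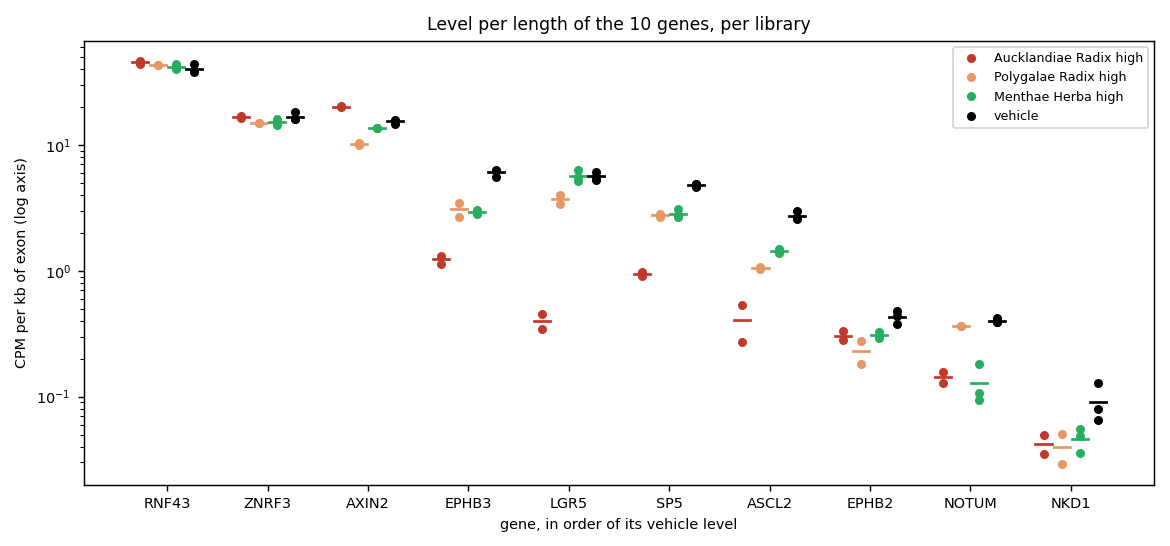
Level of each of the 10 genes in CPM per kb of exon (log axis), 1 point per library and a bar at the group mean, for the high dose of Aucklandiae Radix (n = 2), Polygalae Radix (n = 2) and Menthae Herba (n = 3) and for vehicle (n = 3). LGR5 stands at 0.400 CPM per kb under Aucklandiae Radix and 5.65 in vehicle, while RNF43 stands at 45.3 and 40.5 CPM per kb.

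The stem-cell markers LGR5 and ASCL2 fell furthest, and did so at the high dose of Aucklandiae Radix. LGR5 (ENSG00000139292, chr12:71439770-71586310, plus strand, GRCh38) encodes the receptor for R-spondins that marks crypt base stem cells. It had 2.39 and 1.81 CPM at the high dose of Aucklandiae Radix, against 29.5, 31.8 and 27.7 CPM in vehicle. Both extract libraries lay far below every vehicle library, and the 3 vehicle libraries lay close together. LGR5 was 14.0-fold lower (log2 fold change -3.80 ± 0.11 SE, edgeR quasi-likelihood test, adjusted p = 1.28e-29).

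Most of the drop in LGR5 appeared between the medium and the high dose of Aucklandiae Radix. The low dose had 32.6 and 35.3 CPM of LGR5, the medium dose 28.8 and 28.1 CPM, and the high dose 2.39 and 1.81 CPM. The medium-dose libraries lay within the range of the vehicle, and the medium dose against vehicle gave a log2 fold change of -0.07 (95% interval -0.21 to 0.08). Both medium-dose libraries lay below both low-dose libraries of the same set, a difference that was not called. Against its own low dose, which is free of the set difference, the high dose gave a log2 fold change of -4.0 ± 0.12 SE (edgeR adjusted p = 1.36e-29).

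Polygalae Radix lowered LGR5 to a smaller extent. The high dose had 18.0 and 21.1 CPM of LGR5, against 29.5, 31.8 and 27.7 CPM in vehicle. No library of either group reached the other's range, and the log2 fold change was -0.60 ± 0.08 SE (edgeR adjusted p = 2.1e-08). Here the dose series was graded, with 34.9 and 34.1 CPM at the low dose and 25.3 and 27 CPM at the medium dose, which was lower than the low dose (log2 fold change -0.40 ± 0.08 SE, edgeR adjusted p = 0.0011). With the outlying Saposhnikoviae Radix library kept in the fit, the high-dose value was again -0.60, with an edgeR adjusted p of 0.41.

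In the other extracts LGR5 stayed near its vehicle level at the high dose or above it. Guibi-tang had 27.4, 23.6 and 27.5 CPM of LGR5, all below every vehicle library, a log2 fold change of -0.18 ± 0.07 SE (edgeR adjusted p = 0.03). Its adjusted p was 0.0515, 0.159 and 0.249 without vehicle replicate 1, vehicle replicate 2 and Guibi-tang high replicate 2, and 0.881 with the outlying library. Against its own low dose, with 34.9, 35.2 and 32.5 CPM, the Guibi-tang decrease was -0.39 ± 0.07 SE (edgeR adjusted p = 1.72e-05, and 0.849 with the outlying library in). Menthae Herba had 33.0, 29.3 and 27.1 CPM, spread across the vehicle range, with a log2 fold change of 0.00 (95% interval -0.13 to 0.13). Against its own low dose it was called lower (-0.18 ± 0.06 SE, edgeR adjusted p = 0.0353), but not without Menthae Herba high replicate 2 or 3 or any 1 of the 3 low-dose libraries (adjusted p between 0.0637 and 0.263), nor with the outlying library in (adjusted p = 0.957). LGR5 rose against vehicle at the high dose of Saposhnikoviae Radix (37.5, 38.6 and 38.6 CPM, log2 fold change 0.36 ± 0.06 SE), Saengmaek-san (36.5, 35.1 and 34.4 CPM, 0.25 ± 0.06 SE) and Soyo-san (34.9 and 33.8 CPM, 0.21 ± 0.07 SE). Each of these 3 had an edgeR adjusted p of at least 0.959 with the outlying library kept in. The Saengmaek-san rise was not called without vehicle replicate 3 or Saengmaek-san high replicate 1 (adjusted p = 0.0695 and 0.0553), nor the Soyo-san rise without vehicle replicate 1 or 3 or either Soyo-san library (adjusted p between 0.0709 and 0.2). None of these 3 rises was called against the low dose of the same extract, where the log2 fold change was 0.20 in Saposhnikoviae Radix and 0.03 in Soyo-san, and the Saengmaek-san means were 35.3 CPM at the high and 35.5 CPM at the low dose. In all 8 low-dose groups the mean of LGR5 also lay above vehicle. Over the 25 groups the mean of LGR5 was highest at 38.4 CPM in the single library of Okbyeongpung-san high and 38.3 ± 0.63 CPM (SD, n = 3) in Saposhnikoviae Radix high, and lowest at 2.10 ± 0.41 CPM (SD, n = 2) in Aucklandiae Radix high. Most neighbours in that order overlapped. Every library of Polygalae Radix high lay below every library of the other groups except Aucklandiae Radix high, whose libraries lay lower still.

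ASCL2 (ENSG00000183734, chr11:2268495-2270952, minus strand), a transcription factor that sets the intestinal stem cell state, had 0.507 and 0.991 CPM at the high dose of Aucklandiae Radix, against 4.82, 4.83 and 5.50 CPM in vehicle. These values rest on 14 and 23 counts, against 176, 123 and 151 counts. The groups were far apart, with a log2 fold change of -2.78 ± 0.22 SE (6.87-fold lower, edgeR adjusted p = 1.39e-14). Polygalae Radix high had 1.97 and 1.90 CPM of ASCL2 and Guibi-tang high 2.45, 1.73 and 2.2 CPM, both below the whole vehicle range (log2 fold changes -1.38 ± 0.19 and -1.25 ± 0.16 SE). Menthae Herba high had 2.72, 2.74 and 2.57 CPM of ASCL2 (-0.92 ± 0.15 SE) and Soyo-san high fell by 0.64 on the log2 scale. In Menthae Herba ASCL2 also fell against the low dose, with a log2 fold change of -0.65 ± 0.16 SE (edgeR adjusted p = 0.0015). The ASCL2 fall in Soyo-san was not called without Soyo-san high replicate 1 or 2 (adjusted p = 0.0544 and 0.0698), and with the outlying library in, those in Soyo-san and Menthae Herba had adjusted p values of 0.709 and 0.177 against vehicle, and that in Menthae Herba against the low dose 0.487.

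**Figure D2:**
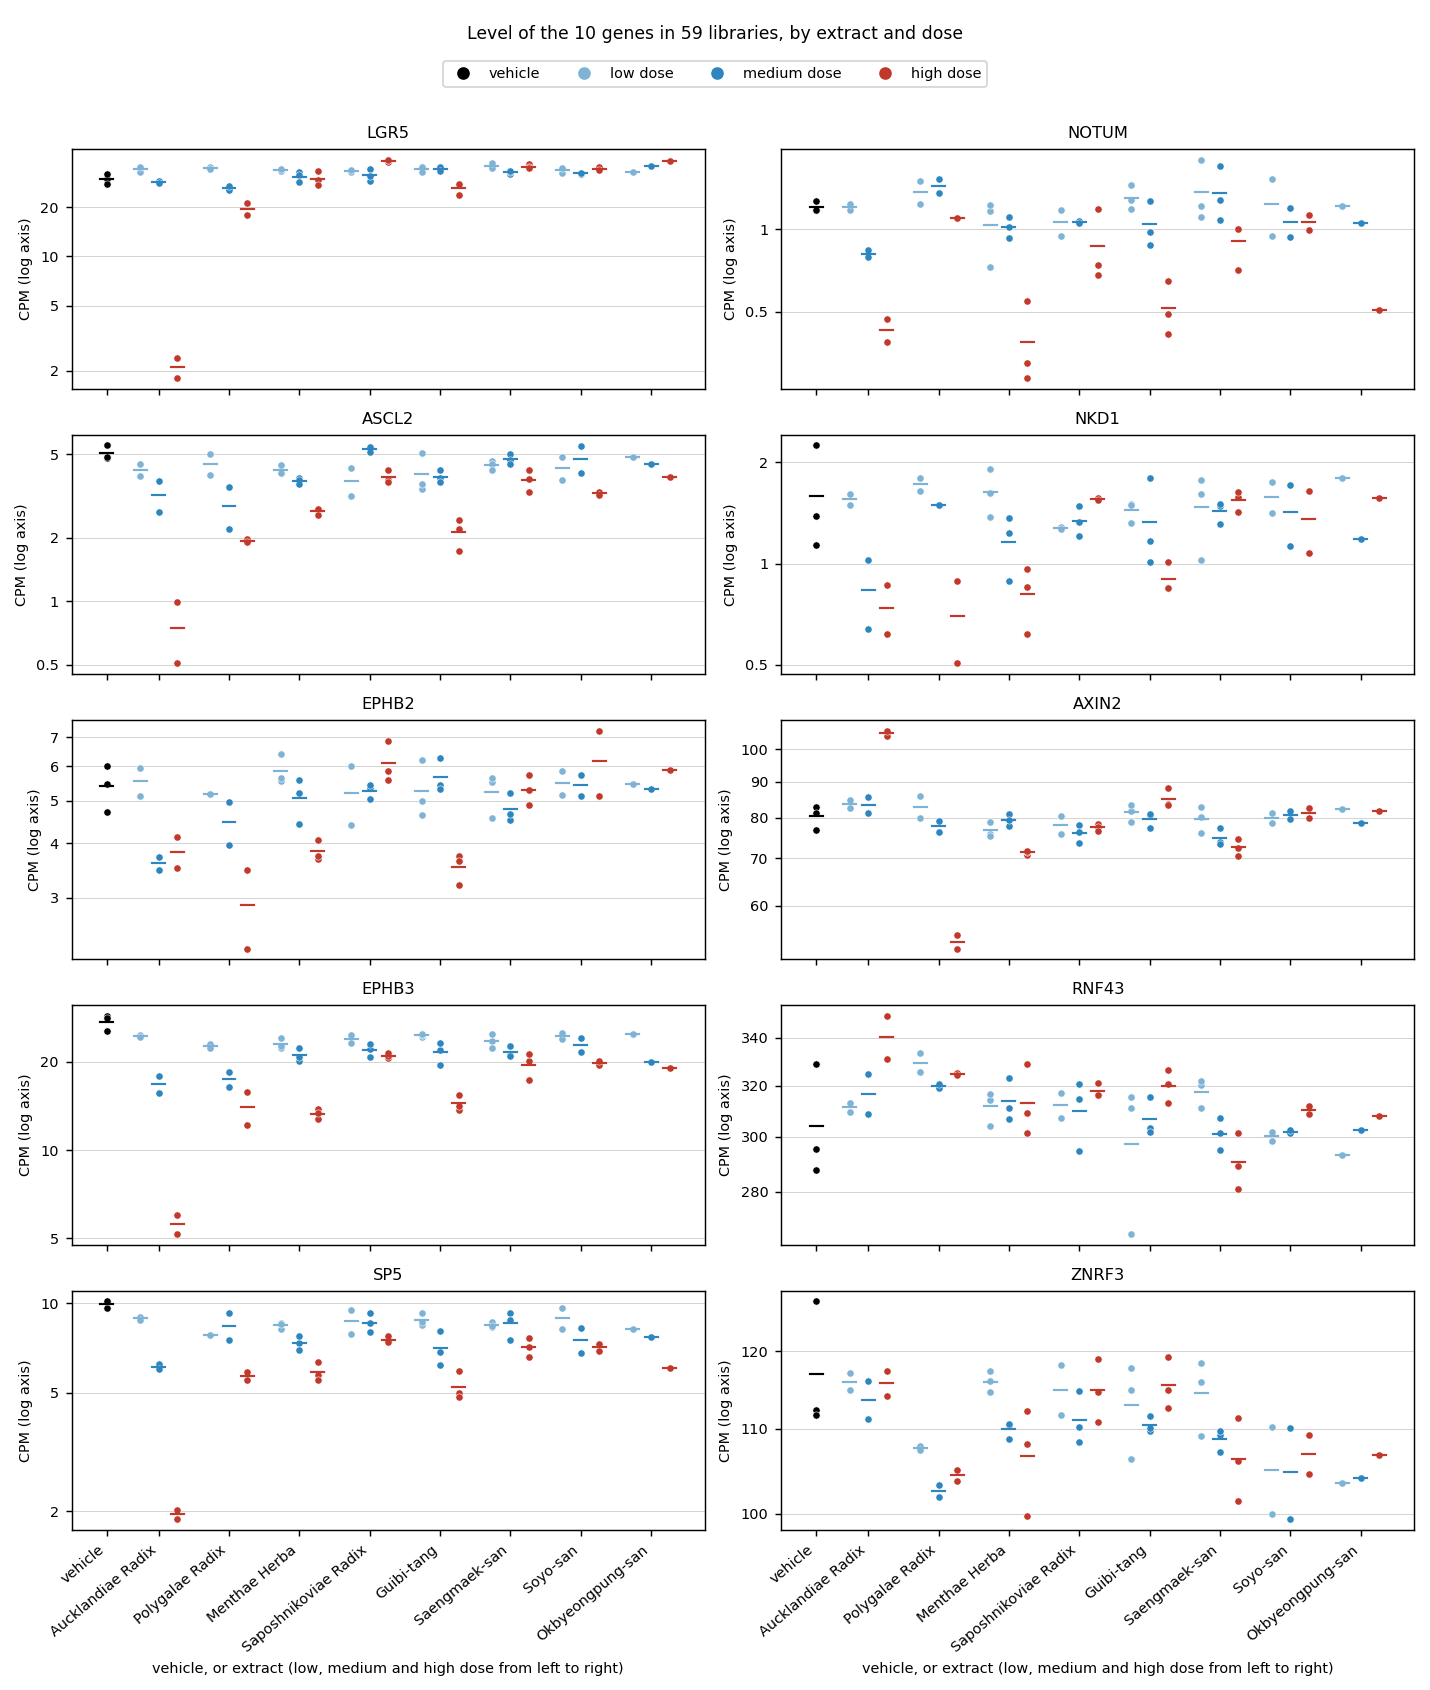
CPM (log axis, its range set per gene) of each of the 10 genes in each of 59 libraries, 1 point per library and a bar at the group mean; vehicle stands at the left, and the low, medium and high dose of each extract follow from left to right. LGR5 drops to 2.39 and 1.81 CPM at the high dose of Aucklandiae Radix, while AXIN2 has its highest mean there (105 CPM) and its lowest at the high dose of Polygalae Radix (53.4 CPM).

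The EPH receptors EPHB2 and EPHB3 position cells along the crypt and are graded from its base upward. EPHB3 (ENSG00000182580, chr3:184561784-184582409, plus strand) had 5.18 and 5.99 CPM at the high dose of Aucklandiae Radix, against 28.6, 25.4 and 28.2 CPM in vehicle. The 2 libraries lay well apart from the vehicle, at 4.95-fold lower (log2 fold change -2.31 ± 0.10 SE, edgeR adjusted p = 8.06e-24). EPHB3 was already low at the medium dose of Aucklandiae Radix, with 15.6 and 17.9 CPM, below both low-dose libraries at 24.7 and 24.3 CPM (log2 fold change against low -0.55 ± 0.09 SE, edgeR adjusted p = 7.1e-05). High-dose Polygalae Radix had 15.8 and 12.2 CPM of EPHB3, Menthae Herba 13.8, 12.7 and 13.4 CPM, and Guibi-tang 13.7, 14.1 and 15.4 CPM. These 3 extracts overlapped each other and lay below all vehicle libraries, with log2 fold changes of -0.98, -1.05 and -0.93. Saposhnikoviae Radix, Saengmaek-san and Soyo-san gave smaller values, with -0.39, -0.49 and -0.48. EPHB3 was called lower than vehicle at the high dose of all 7 extracts tested and at the medium dose of all 7, where the Soyo-san call was lost without vehicle replicate 1 or 3 or either Soyo-san library (adjusted p between 0.0503 and 0.348). With the outlying library in, all 7 high-dose calls passed, and of the medium-dose ones those of Aucklandiae Radix and Polygalae Radix. Its mean lay below vehicle in all 24 extract groups, the 8 low-dose ones included, where extract and library set cannot be told apart. Against the low dose of the same extract EPHB3 fell in 5 of 7 extracts and did not pass the test in Saposhnikoviae Radix and Saengmaek-san. Of the 5, the Soyo-san call was lost without any 1 of its 4 libraries (edgeR adjusted p between 0.139 and 0.364) and had an adjusted p of 0.459 with the outlying library in.

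EPHB2 (ENSG00000133216, chr1:22710839-22921500, plus strand) fell less. It had 3.51 and 4.14 CPM at the high dose of Aucklandiae Radix, against 6.02, 4.71 and 5.46 CPM in vehicle, a log2 fold change of -0.52 ± 0.15 SE (edgeR adjusted p = 0.00338), which was -0.39 without Aucklandiae Radix high replicate 2 (adjusted p = 0.101). Its lowest level was at the high dose of Polygalae Radix, with 2.30 and 3.47 CPM and a log2 fold change of -0.91 ± 0.17 SE. High-dose Menthae Herba had 3.69, 4.08 and 3.74 CPM of EPHB2 and Guibi-tang 3.74, 3.64 and 3.21 CPM, all below the vehicle libraries (-0.50 ± 0.13 and -0.63 ± 0.14 SE). In the other 3 extracts EPHB2 did not pass the test, with log2 fold changes of 0.16, -0.03 and 0.18 for Saposhnikoviae Radix, Saengmaek-san and Soyo-san. Against the low dose of Aucklandiae Radix, EPHB2 was also called lower. The log2 fold change was -0.41 without its high replicate 2 and -0.42 without its low replicate 2, and neither run kept the call. Between the high doses of Aucklandiae Radix and Polygalae Radix, EPHB3 differed by -1.32 ± 0.11 SE on the log2 scale (edgeR adjusted p = 1.6e-13). For EPHB2 that difference was 0.39 (95% interval 0.01 to 0.78, adjusted p = 0.072).

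SP5 (ENSG00000204335, chr2:170715351-170718078, plus strand), a zinc finger repressor that WNT signalling induces directly and whose window held the 3 matches above, had 1.88 and 2.03 CPM at the high dose of Aucklandiae Radix, against 10.1, 9.62 and 10.2 CPM in vehicle. The extract libraries agreed closely and lay 5.11-fold below vehicle (log2 fold change -2.35 ± 0.13 SE, edgeR adjusted p = 2.19e-20). The medium dose had 6.25 and 6.00 CPM of SP5 and the low dose 9.03 and 8.79 CPM, so the decrease began at the medium dose (log2 fold change against low -0.54 ± 0.11 SE, edgeR adjusted p = 0.0021). SP5 had 5.51 and 5.88 CPM in Polygalae Radix high, 5.76, 6.34 and 5.53 CPM in Menthae Herba high and 4.99, 5.91 and 4.86 CPM in Guibi-tang high. Those levels were below all vehicle libraries and close to one another, with log2 fold changes of -0.81, -0.76 and -0.93. Like EPHB3, SP5 was called lower than vehicle at the high dose of all 7 extracts and had a mean below vehicle in all 24 extract groups. Against the low dose it fell in 4 of 7 extracts: Aucklandiae Radix, Polygalae Radix, Menthae Herba and Guibi-tang. The outlying library, kept in, removed calls of SP5: those against vehicle in Saposhnikoviae Radix, Saengmaek-san and Soyo-san (adjusted p = 0.838, 0.548 and 0.52) and against the low dose in Polygalae Radix and Menthae Herba (adjusted p = 0.399 and 0.219). The decrease at the medium dose of Aucklandiae Radix was not called without its medium replicate 3 (adjusted p = 0.0609). The single library of Okbyeongpung-san high had 6.05 CPM of SP5 and 19.0 CPM of EPHB3, both inside the range of the other high-dose groups.

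NOTUM and NKD1 are feedback inhibitors: NOTUM is a secreted enzyme that removes the lipid from WNT ligands, and NKD1 binds Dishevelled in the cytoplasm. Both were near the lower limit of the data. NOTUM (ENSG00000185269, chr17:81952507-81961840, minus strand) had 13 and 9 counts (0.471 and 0.388 CPM) at the high dose of Aucklandiae Radix, against 43, 30 and 35 counts (1.18, 1.18 and 1.27 CPM) in vehicle, and fell by 1.48 on the log2 scale (SE 0.29, edgeR adjusted p = 2.55e-05). It was lowest at the high dose of Menthae Herba, with 8, 16 and 8 counts (0.324, 0.548 and 0.285 CPM) and a log2 fold change of -1.62 ± 0.26 SE. Guibi-tang high had 0.649, 0.489 and 0.413 CPM of NOTUM (-1.23 ± 0.26 SE), and the single Okbyeongpung-san high library had 0.508 CPM. In the other 4 extracts tested NOTUM did not pass the test against vehicle. Polygalae Radix had 1.1 and 1.1 CPM at the high dose (log2 fold change -0.14, 95% interval -0.65 to 0.37), and the values were -0.47 for Saposhnikoviae Radix, -0.41 for Saengmaek-san and -0.19 for Soyo-san. Between the high doses of Aucklandiae Radix and Polygalae Radix, NOTUM differed by -1.34 ± 0.33 SE (edgeR adjusted p = 0.00048).

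NKD1 (ENSG00000140807, chr16:50548330-50649249, plus strand) had 0.616 and 0.862 CPM at the high dose of Aucklandiae Radix and 0.505 and 0.888 CPM at that of Polygalae Radix, against 2.25, 1.14 and 1.38 CPM in vehicle. The extract libraries lay below the vehicle libraries, which were spread wide, and the log2 fold changes were -1.15 ± 0.28 and -1.21 ± 0.29 SE (edgeR adjusted p = 0.000455 and 0.00087). The Polygalae Radix value was -0.87 without Polygalae Radix high replicate 2 (adjusted p = 0.0558). NKD1 fell by 1.01 (SE 0.24) in Menthae Herba and by 0.85 (SE 0.25) in Guibi-tang against vehicle, and the values without vehicle replicate 1, the highest of the 3, were -0.65 and -0.49 (edgeR adjusted p = 0.0608 and 0.164). The Guibi-tang value had an adjusted p of 0.0891 with the outlying library in. Against the low dose, NKD1 fell in Aucklandiae Radix, Polygalae Radix and Menthae Herba, where the first was -0.84 without Aucklandiae Radix high replicate 2 (edgeR adjusted p = 0.0644) and the second -0.96 without Polygalae Radix high replicate 2 (adjusted p = 0.062), and reached -0.67 in Guibi-tang (95% interval -1.18 to -0.16, edgeR adjusted p = 0.057).

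AXIN2, a widely used readout of WNT activity, moved in opposite directions under Aucklandiae Radix and Polygalae Radix, extracts of 1 library set. AXIN2 (ENSG00000168646, chr17:65528563-65561647, minus strand) had 105 and 106 CPM at the high dose of Aucklandiae Radix, against 82.8, 76.9 and 81.2 CPM in vehicle. It was higher in both libraries than in any library of the other groups kept, with a log2 fold change of 0.39 ± 0.04 SE (edgeR adjusted p = 2.88e-11), and 0.34 ± 0.04 SE against the low dose. Polygalae Radix high had 54.6 and 52.1 CPM of AXIN2, lower than in any library of the other groups kept, with -0.59 ± 0.04 SE against vehicle (edgeR adjusted p = 4e-15) and -0.63 ± 0.05 SE against the low dose. The high doses of Aucklandiae Radix and Polygalae Radix differed by 0.98 ± 0.05 SE on the log2 scale (edgeR adjusted p = 4.1e-22, and 0.0472 with the outlying library in). Smaller decreases were called in Menthae Herba (70.9, 71.6 and 71.7 CPM, -0.17 ± 0.04 SE) and Saengmaek-san (70.6, 74.7 and 72.4 CPM, -0.15 ± 0.04 SE). Against its low dose, AXIN2 was also called lower in Menthae Herba. That call was lost with DESeq2 (log2 fold change -0.10, DESeq2 adjusted p = 0.0514). It was also lost without any 1 high-dose or low-dose library (edgeR adjusted p between 0.0522 and 0.175). The outlying Saposhnikoviae Radix library had 5.56 CPM of AXIN2, and with it in the fit the values against vehicle were 0.39 and -0.59 again for Aucklandiae Radix and Polygalae Radix, with edgeR adjusted p values of 0.409 and 0.367, and no AXIN2 value against vehicle or the low dose was called. The Saengmaek-san decrease was not called without Saengmaek-san high replicate 1 (adjusted p = 0.0616). Between those extremes the order of the 25 groups was dense: the groups from the second to the penultimate place ran between 85.0 and 71.4 CPM, and most neighbours overlapped. The Aucklandiae Radix and Polygalae Radix high groups were set off from their neighbours by gaps that no library crossed.

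RNF43 and ZNRF3 varied least. RNF43 (ENSG00000108375, chr17:58352500-58417595, minus strand) had 331 and 349 CPM at the high dose of Aucklandiae Radix, against 329, 288 and 295 CPM in vehicle, a small rise that was called (log2 fold change 0.16 ± 0.05 SE, edgeR adjusted p = 0.00493) and was 0.13 without Aucklandiae Radix high replicate 3 (adjusted p = 0.0874). Its adjusted p was 0.145 with the outlying library in. In the other 6 extracts its log2 fold change at high dose lay between -0.07 and 0.09 against vehicle and passed no test. Against the low dose of Aucklandiae Radix, the RNF43 rise was not called without the low-count filter (log2 fold change 0.13, edgeR adjusted p = 0.0966). Nor was it called in the fit of 1 library set with the vehicle (0.13, edgeR adjusted p = 0.0843). It was 0.10 without Aucklandiae Radix high replicate 3. ZNRF3 (ENSG00000183579, chr22:28883592-29057487, plus strand) had 114 and 117 CPM at the high dose of Aucklandiae Radix, against 127, 112 and 112 CPM in vehicle, overlapping groups with a log2 fold change of -0.02 (95% interval -0.12 to 0.09). ZNRF3 was called lower than vehicle at the high dose of Polygalae Radix, Menthae Herba and Saengmaek-san, by 0.17, 0.14 and 0.14 on the log2 scale. Without vehicle replicate 1, which had the 127 CPM, these were -0.11, -0.07 and -0.08 and were not called (edgeR adjusted p between 0.112 and 0.316), and with the outlying library in they had adjusted p values of at least 0.724. Nor were they called without either library of Polygalae Radix, Menthae Herba high replicate 3, or Saengmaek-san high replicate 1 or 3 (adjusted p between 0.0663 and 0.191). ZNRF3 was called in no extract against the low dose (2 of 7 at an unadjusted p under 0.05, and 0 by DESeq2). Annotated exons of SUPT4H1 on the same strand and of TSPOAP1-AS1 on the opposite strand overlap RNF43, with 61.3 and 10.4 CPM in vehicle. A further protein-coding gene of the annotation on the same strand, ENSG00000285897, shares up to 2208 bases of exon with RNF43 and has no line in the count table used here. Overlapping genes of LGR5, AXIN2, EPHB2 and NKD1 had at most 0.0790 CPM there, and how reads were assigned between overlapping genes was not tested.

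**Figure D3:**
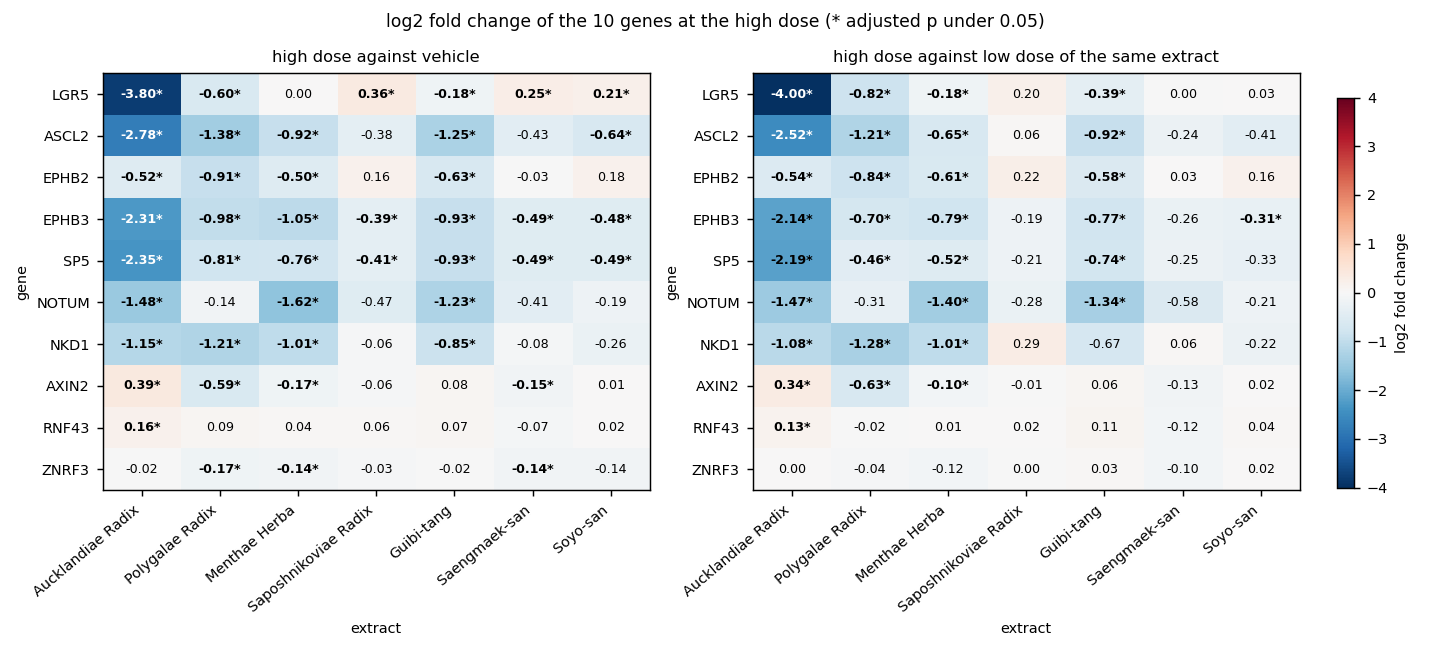
log2 fold change of the 10 genes (rows) at the high dose of 7 extracts (columns), against vehicle on the left and against the low dose of the same extract on the right; blue is lower and red is higher at the high dose, and an asterisk marks an adjusted p under 0.05. LGR5 reads -3.80 and -4.0 under Aucklandiae Radix, AXIN2 reads 0.39 and 0.34 there and -0.59 and -0.63 under Polygalae Radix, and no gene is marked for Saposhnikoviae Radix or Saengmaek-san on the right.

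Counted over the 10 genes, Aucklandiae Radix high against vehicle gave 2 higher, 7 lower and 1 not called, where 62% of all tested genes were called and 31% were called lower. The count of calls is therefore read against a background in which most genes moved, and the sizes differed more: the median log2 fold change was -1.31 for the 10 genes and -0.02 for all tested genes, and 6 of the 10 were called at least 2-fold lower, against 9.9% of all tested genes. Polygalae Radix high gave 8 lower (36.5% of all genes were called and 19.6% called lower) with a median of -0.71. Menthae Herba high gave 8 lower (28.2% called and 14.5% called lower) with a median of -0.63, and Guibi-tang high gave 7 lower (29.4% called and 14.7% called lower) with a median of -0.74. Saposhnikoviae Radix high gave 1 higher and 2 lower (10.2% of all genes called in either direction), Saengmaek-san high 1 higher and 4 lower (12% of all genes) and Soyo-san high 1 higher and 3 lower (17.7% of all genes), with medians of -0.06, -0.15 and -0.16. The Saengmaek-san count of 5 was 2 without Saengmaek-san high replicate 1, and the Soyo-san count of 4 was 2 without Soyo-san high replicate 1 or 2. The counts of called genes with the outlying library in were 7 in Aucklandiae Radix, 5 each in Polygalae Radix, Menthae Herba and Guibi-tang, and 1 each in Saposhnikoviae Radix, Saengmaek-san and Soyo-san. These comparisons share the 3 vehicle libraries.

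Against the low dose of the same extract, Aucklandiae Radix high gave 2 higher and 7 lower (58.7% of all genes called), Polygalae Radix 7 lower (16% of all genes called lower), Menthae Herba 8 lower (11.6% of all genes) and Guibi-tang 6 lower (9.08% of all genes). Soyo-san gave 1 lower, EPHB3 (1.38% of all genes), and Saposhnikoviae Radix and Saengmaek-san gave 0, where 0.289% and 0.854% of all genes were called in either direction. At an unadjusted p under 0.05 edgeR had 2 and 6 of the 10 genes there, beside 1285 and 2197 of the 16978 tested genes. DESeq2 called 0 and 2 of the 10. The Menthae Herba count of 8 was 7 with DESeq2, 7 with relative log expression scaling, 6 without the filter and 9 with a replicate block. The Aucklandiae Radix count of 9 called genes was 8 without the filter and 8 in the fit of 1 library set with the vehicle. Every run without 1 of its high-dose or low-dose libraries also gave a smaller count. Of 70 tests of a medium dose against vehicle, 1 gave a rise and 18 a fall, 5 of them in Aucklandiae Radix. Of those 5, EPHB2, ASCL2 and NKD1 were each lost without 1 library or another. The 19 calls were 13 in the fits of 1 library set with the vehicle. The share of all genes called at the medium dose was 13.6% with Aucklandiae Radix, 10.2% with Polygalae Radix, 10.1% with Menthae Herba, 3.69% with Saposhnikoviae Radix, 11% with Guibi-tang, 11.4% with Saengmaek-san and 8.55% with Soyo-san. Of 70 tests of a low dose against vehicle, 3 gave a rise, all of them LGR5, and 6 a fall, while the share of all genes called was 4.97%, 9.98%, 9.45%, 11.5%, 6.05%, 18% and 9.8% for the same extracts in that order. The 9 calls were 4 without vehicle replicate 1, 1 without vehicle replicate 3, and 5 without Polygalae Radix low replicate 2 or 3. Of 70 tests of the medium against the low dose, 6 gave a fall and 0 a rise, 3 in Aucklandiae Radix (EPHB2, EPHB3 and SP5, 2.6% of all genes called) and 3 in Polygalae Radix (LGR5, EPHB3 and ASCL2, 4.95% of all genes called). Each of these 6 except EPHB3 in Aucklandiae Radix was lost without 1 library or another of the pair of doses. With the outlying library in, 2 calls were left in each of these 3 families of 70 tests, and the counts of the high against the low dose were 7 in Aucklandiae Radix, 3 in Polygalae Radix, 4 in Menthae Herba and in Guibi-tang, 1 in Saposhnikoviae Radix, and 0 in Saengmaek-san and Soyo-san.

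The change between the low and the high dose was itself compared between Aucklandiae Radix and each other extract. LGR5, EPHB3, SP5, ASCL2 and AXIN2 differed in all 6 of these comparisons. With the outlying library in, LGR5, EPHB3 and SP5 differed in all 6, ASCL2 in 3 and AXIN2 in 0, and the AXIN2 difference against Saposhnikoviae Radix, whose low dose that library belongs to, was -0.18 (adjusted p = 0.808). The ASCL2 difference against Polygalae Radix was not called without Aucklandiae Radix high replicate 2 (adjusted p = 0.0579). The difference in LGR5 was smallest against Polygalae Radix, at -3.18 ± 0.15 SE on the log2 scale (edgeR adjusted p = 1.5e-21), and largest against Saposhnikoviae Radix, at -4.20 ± 0.14 SE (edgeR adjusted p = 1.4e-26). For AXIN2 the difference was positive in each, between 0.27 ± 0.06 SE against Guibi-tang and 0.97 ± 0.07 SE against Polygalae Radix. NOTUM differed in 3 of the 6, EPHB2 in 3, NKD1 in 2, RNF43 in 1 and ZNRF3 in 0 (0 also at an unadjusted p under 0.05). DESeq2 called 1 for NOTUM, 2 for EPHB2, 2 for NKD1, 1 for RNF43 and 0 for ZNRF3. Each of the NOTUM and EPHB2 differences was lost without 1 library or another: for NOTUM with adjusted p values up to 0.085 against Polygalae Radix (without Aucklandiae Radix high replicate 3), 0.124 against Saposhnikoviae Radix (without its high replicate 2) and 0.0825 against Soyo-san (without its low replicate 2). For EPHB2 they reached 0.0677 against Saposhnikoviae Radix (without its low replicate 3), 0.163 against Saengmaek-san (without Aucklandiae Radix high replicate 2) and 0.174 against Soyo-san (without its high replicate 1). The NKD1 difference against Saengmaek-san had an adjusted p of 0.104 without Aucklandiae Radix high replicate 2. The share of all tested genes that differed was 46.6% against Polygalae Radix, 47.4% against Menthae Herba, 47.7% against Saposhnikoviae Radix, 45.1% against Guibi-tang, 49.3% against Saengmaek-san and 46.3% against Soyo-san.

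Within the library sets, 7 of the 10 genes differed between Aucklandiae Radix and Polygalae Radix at high dose (58.3% of all genes were called), 5 of them lower under Aucklandiae Radix (LGR5, SP5, ASCL2, NOTUM and EPHB3) and 2 higher (AXIN2 and ZNRF3). The ZNRF3 difference was not called without either Polygalae Radix library or Aucklandiae Radix high replicate 3 (edgeR adjusted p between 0.0761 and 0.109). The doses were 370 and 380 µg/mL. Between Menthae Herba and Saposhnikoviae Radix at 500 µg/mL, 8 genes were lower under Menthae Herba (16.1% of all genes were called and 8.03% called lower), and RNF43 and ZNRF3 did not pass the test. Without Saposhnikoviae Radix high replicate 2 the count was 5, with NOTUM, AXIN2 and ASCL2 no longer called (edgeR adjusted p = 0.118, 0.0734 and 0.085). AXIN2 was also lost without Saposhnikoviae Radix high replicate 1 or any 1 Menthae Herba high library (edgeR adjusted p between 0.0585 and 0.0949). ASCL2 was lost without Menthae Herba high replicate 3 and NKD1 without Menthae Herba high replicate 2 (edgeR adjusted p = 0.0637 and 0.0581). Between Guibi-tang and Saengmaek-san at 500 µg/mL, 6 genes were lower under Guibi-tang and 2 higher (12.7% of all genes called). NKD1, 1 of the 6, was not called without any 1 of the 6 libraries (edgeR adjusted p between 0.0601 and 0.12). The 2 higher ones were AXIN2 (83.6, 83.4 and 88.0 CPM under Guibi-tang, against 70.6, 74.7 and 72.4 CPM under Saengmaek-san, log2 difference 0.22 ± 0.04 SE) and RNF43 (0.14 ± 0.04 SE), which was not called without any 1 of 4 of the 6 libraries (edgeR adjusted p between 0.0916 and 0.151). The counts of the 3 pairs with the outlying library in were 5, 3 and 2.

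Over the means of the 25 groups, EPHB3 and SP5 had the highest Pearson r of log2 CPM among the 10 genes, 0.96, and 0.87 over the 24 groups without Aucklandiae Radix high. Over those 24 the highest was that of LGR5 with EPHB2, 0.88, which was 0.48 over the 25, so this order rested on that group. EPHB3 and ASCL2 had r = 0.95 and 0.86. The correlation of LGR5 with AXIN2 was -0.41 over 25 groups and 0.62 over the 24, so its sign rested on Aucklandiae Radix high. Over the whole table, the genes whose pattern was most like that of LGR5, among 10550 with a mean of at least 5 CPM, were GDA, CXCR4, SLITRK6, MYB and CLRN3, each with r = 0.99. Without Aucklandiae Radix high the r of GDA with LGR5 was 0.93 and that of the other 4 lay between 0.79 and 0.82. The genes most like EPHB3 were PTPRO, NOX1, AQP5, SELENBP1 and WNK4 (r = 0.97 each, 0.91 to 0.92 without that group). Among those most like AXIN2 were DSP, JUP, PLS3 and GSN (r between 0.92 and 0.94, and 0.88 to 0.91 without that group). The groups share library sets and the vehicle, so these values are descriptions.

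The rest of the pathway was read from lists of named genes at the high doses against vehicle. Under Aucklandiae Radix, 11 of 14 tested WNT and R-spondin receptor genes fell and 1 rose (median log2 fold change -0.41), where 31% of all tested genes were called lower and 31% higher (median -0.02). The counts of the other lists under this extract stand against the same shares. ROR1, a receptor tyrosine kinase for WNT ligands, had 19.5 CPM, against 89.0 CPM in vehicle (-2.2 ± 0.09 SE), and FZD1, a Frizzled receptor, 0.555 CPM, against 2.87 CPM (-2.38 ± 0.23 SE). Of 9 tested ligand and secretion genes 2 fell and 2 rose; WNT11 fell by 2.37 on the log2 scale and WNT7B by 0.81, while PORCN and WLS, which act on the lipid attachment and export of WNT proteins, rose by 0.42 and 0.13. Of 6 tested secreted antagonists 4 fell and 1 rose, with SOSTDC1 at -3.11 ± 0.15 SE. The gene that rose was DKK3, with 25 and 14 counts, against 4, 0 and 0 counts in vehicle (edgeR adjusted p = 2.43e-05), too few in vehicle for a fold.

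Inside the cell the direction was mixed. Of 19 tested genes of the destruction complex and signal transduction, 9 rose and 3 fell under Aucklandiae Radix, a share called near the 62% of all tested genes, with DVL1, a Dishevelled protein, at 1.01 ± 0.06 SE and CSNK1A1, a kinase that phosphorylates beta-catenin, at 0.57 ± 0.05 SE. Of 13 nuclear effectors 3 rose and 7 fell, with the coactivator BCL9L at 1.31 ± 0.08 SE and the corepressor TLE1 at -1.09 ± 0.07 SE. Polygalae Radix was the extract in which CTNNB1, the beta-catenin gene, headed this list by size: it had 114 CPM, against 172 CPM in vehicle (-0.60 ± 0.05 SE, edgeR adjusted p = 1.15e-13), while 8 of the 19 genes rose and 2 fell (36.5% of all tested genes were called).

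Other WNT targets did not share 1 direction under Aucklandiae Radix: of 22 tested, 12 fell and 7 rose (median -0.21). TDGF1 fell by 4.0 and CLDN2, a claudin, by 2.64, whereas PLAUR, the urokinase receptor, rose by 2.17 and FOSL1, an AP-1 subunit, by 2.13. Of 20 other crypt stem and progenitor genes, 12 fell and 4 rose (median -0.60), with the transcription factor MYB at -3.30 ± 0.09 SE (4.52 CPM, against 44.1 CPM in vehicle), PTPRO at -2.86 ± 0.10 SE, SLC12A2 at -2.13 ± 0.08 SE and MEX3A at -1.98 ± 0.07 SE. Under Polygalae Radix, Menthae Herba and Guibi-tang the same list gave 7, 7 and 8 falls and 6, 3 and 4 rises, where 36.5%, 28.2% and 29.4% of all tested genes were called and 19.6%, 14.5% and 14.7% called lower, with PTPRO lower in each (-1.04, -0.91 and -1.15).

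**Figure D4:**
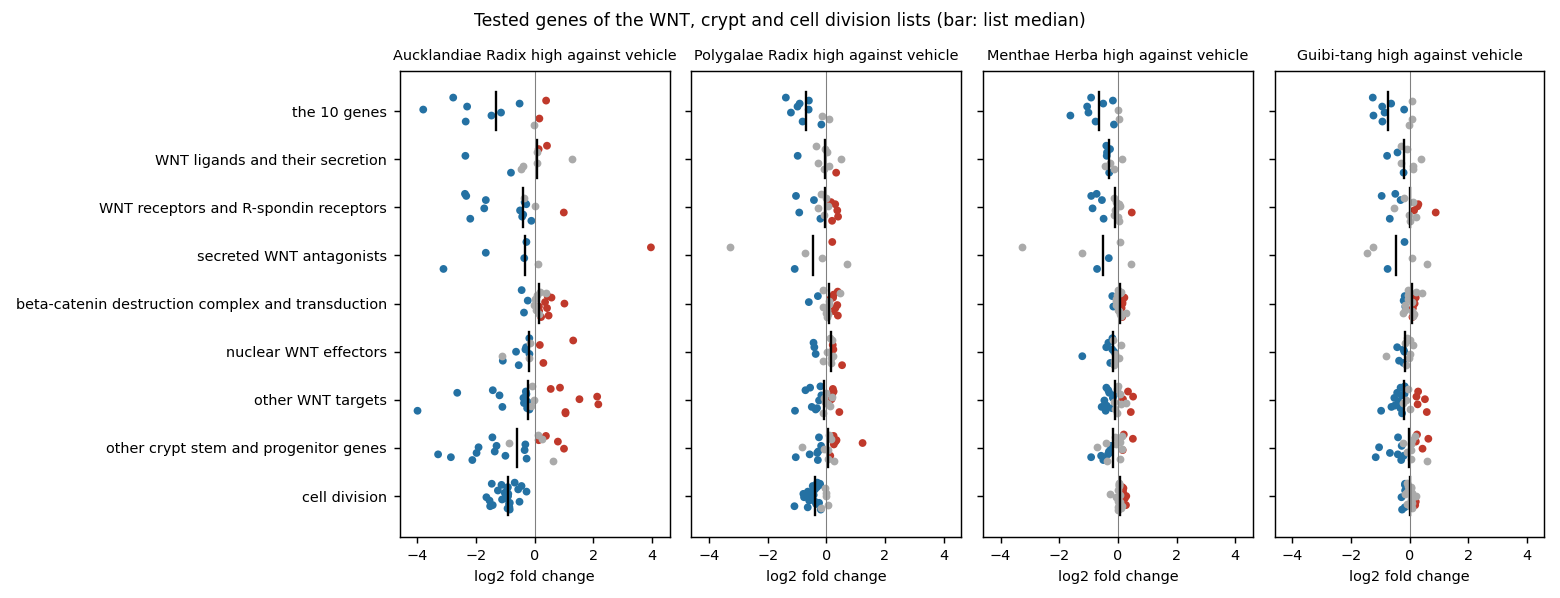
log2 fold change (x axis) of every tested gene of the 10 genes and of 8 lists (rows) at the high dose of Aucklandiae Radix, Polygalae Radix, Menthae Herba and Guibi-tang against vehicle; blue and red points are lower and higher at an adjusted p under 0.05, grey points did not pass, and the bar is the median. All 25 cell division genes lie below 0 under Aucklandiae Radix (median -0.93), while under Menthae Herba their median is 0.08 and that of the 10 genes is -0.63.

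Cell division genes moved with the 10 genes in some extracts and not in others. Under Aucklandiae Radix high all 25 fell (median -0.93), and their sum was 2311 to 2369 CPM, against 4563 to 5114 CPM in vehicle. MKI67, the proliferation marker, had 356 CPM, against 1034 CPM in vehicle (-1.54 ± 0.13 SE). Under Polygalae Radix high 20 of 25 fell (median -0.38). Under Menthae Herba high 10 rose and 0 fell (median 0.08), with a sum of 5114 to 5304 CPM, while 8 of the 10 WNT and stem-cell genes fell there. Under Guibi-tang high 2 rose and 6 fell, a share called near the 29.4% of all tested genes. Of all tested genes, 31% were called lower under Aucklandiae Radix, 19.6% under Polygalae Radix, 14.5% under Menthae Herba and 14.7% under Guibi-tang. Those called higher were 31%, 16.8%, 13.7% and 14.7% in that order. The counts of the epithelial markers stand against the same shares. Epithelial markers moved as well: their sum was 7652 to 8486 CPM under Polygalae Radix high and 14687 to 14868 CPM under Aucklandiae Radix high, against 12817 to 15207 CPM in vehicle, and of the 12 markers 11 fell under Polygalae Radix, 6 fell and 3 rose under Aucklandiae Radix, and 6 and 7 fell and 1 rose in each under Menthae Herba and Guibi-tang. The mitochondrial share of counts was 6.19% to 6.52% under Aucklandiae Radix high, against 9.46% to 12.3% in vehicle. The part of these shifts in the changes of the 10 genes was not tested.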

How the data were processed

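The authors deposited expected counts, 1 column per library and 1 gene per line. The submitters' processing notes name RSEM 1.3.3, STAR 2.7.3a, Trim Galore 0.6.5 and FastQC 0.11.9, with no order or settings. The genome build is GRCh38. The sources used here name no strand setting and no annotation release. Values were rounded to whole counts (10.0% were not whole, with no tolerance). Coordinates and exon lengths come from GENCODE 29.

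The fit used edgeR 4.0.16 in R 4.3.3 (TMM, filterByExpr, 1 coefficient per group, quasi-likelihood F-test, two-sided, Benjamini-Hochberg over 16978 genes per comparison, call at adjusted p under 0.05). It took 56 libraries of 22 groups and left 34 residual degrees of freedom. Okbyeongpung-san, with 1 library per dose, was described only. The SE is the log2 fold change divided by the square root of F, and CPM uses TMM-scaled totals. Beyond the 10 genes, the text names of each list up to 4 called genes by size, and 5 genes most like LGR5, EPHB3 and AXIN2, of which 1 is not reported here. No 2 libraries were identical, and the 46 pairs within groups all differed by more than sampling noise (chi-square per degree of freedom 2.09 to 23.0). The script was tested on simulated data. DESeq2 1.42.0, relative log expression scaling, no filter, a replicate block, each library left out and, added after the data were seen, fits of 1 library set with the vehicle were the alternatives. The genes and the lists were chosen with earlier results of these data known.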

Additional observations from a re-analysis of the deposited data

Results flagged for a closer look

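The change between the low and the high dose differed between Aucklandiae Radix and every other extract tested with replicates, by a test of the difference itself (edgeR quasi-likelihood test, adjusted p under 0.05). The number of the 10 genes that differed was 6 against Polygalae Radix, 5 against Menthae Herba, 8 against Saposhnikoviae Radix, 5 against Guibi-tang, 8 against Saengmaek-san and 7 against Soyo-san, and in each of these comparisons 45.1% to 49.3% of all tested genes differed too. The counts of 5 and 6 genes lie near that share. LGR5, ASCL2, EPHB3 and SP5 fell further under Aucklandiae Radix in all 6, and AXIN2 was the gene of the 10 that differed upward in all 6. With the outlying library in, AXIN2 lost these calls and ASCL2 lost part of them.

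Saposhnikoviae Radix low replicate 2, which was left out of the main comparisons, had 27.7 CPM of ASCL2, above the highest vehicle library at 5.50 CPM, and 6.06 CPM of EPHB2, beside 6.02 CPM in the highest vehicle library. In the same library LGR5, AXIN2 and SP5 had 1.16, 5.56 and 1.58 CPM, against 27.7, 76.9 and 9.62 CPM in the lowest vehicle library.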

How the results depend on the processing

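None of the 75 called values of the 10 genes at the high dose against vehicle or the low dose changed sign under any alternative run; the called AXIN2 dose difference between Aucklandiae Radix and Saposhnikoviae Radix became -0.18 with the outlying library in. With the outlying library kept in, 32 of the 75 were no longer called: the counts of the 10 genes against vehicle were then 5 in Polygalae Radix, 5 in Menthae Herba and 1 each in Saposhnikoviae Radix, Saengmaek-san and Soyo-san, those against the low dose 3 in Polygalae Radix, 4 in Menthae Herba, 1 in Saposhnikoviae Radix and 0 in Soyo-san, those of the pairs 3 (Menthae Herba against Saposhnikoviae Radix) and 2 (Guibi-tang against Saengmaek-san), and those of the lower doses 2 of 70 each for medium against vehicle, low against vehicle and medium against low. Soyo-san against its low dose gave 0 with relative log expression scaling and in the fit of 1 library set with the vehicle. Saengmaek-san against its low dose gave 1 without the filter, 1 with a replicate block and 2 with DESeq2. The 9 low-dose calls against vehicle became 5 without the filter and 4 in the fits of 1 set, and the 6 medium against low calls became 3 in those. Leaving out 1 library at a time, the counts against vehicle ran from 2 to 5 in Saengmaek-san and from 2 to 5 in Soyo-san, against the low dose 0 in Soyo-san, in the pair of Menthae Herba and Saposhnikoviae Radix from 5 to 8, and over the low doses against vehicle from 1 to 13. The cause of these shifts was not tested. Whether replicate numbers pair the libraries is not stated, and correlations of deviations cannot settle it (from -0.088 to 0.135, above 0.1 in 4 of 174 pairs). The replicate block removed 0 of the 75 calls, and a replicate block within sets 0 of 31. The block within sets raised the count of Guibi-tang against its low dose from 6 to 8. It raised Guibi-tang against Saengmaek-san from 8 to 10, and Menthae Herba against its low dose and against Saposhnikoviae Radix from 8 to 9 each. NOTUM and NKD1 rest on 8 to 82 counts in the libraries named, and their changes are limited by depth.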
